A study of Mus musculus with 22 samples.

Results

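The nuclear genes of respiratory complexes III and IV and of ATP synthase were followed in mouse kidney cortex. Members were taken by symbol, by a rule that reads no measured value but was written with earlier results of these data known: Cyc1, and every symbol that begins with Uqcr, with Atp5, or with Cox and a digit from 4 to 8. They make up 40 of the 16556 genes of the count table, with 9 in complex III, 15 in complex IV and 16 in ATP synthase. The name rule also brings in Cox7a2l, an assembly factor of respiratory supercomplexes, and Atp5s, coupling factor B of ATP synthase. After a filter on low counts, 39 members were tested among 15064 genes, and Cox8b, with at most 0.928 CPM in any library, was not. Levels are given in CPM, a count set against the total of its library after TMM scaling.

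Complex III takes electrons from ubiquinol to cytochrome c, and complex IV passes them from cytochrome c to oxygen. Both pump protons across the inner mitochondrial membrane, and ATP synthase uses the resulting gradient to make ATP. The catalytic cores of complexes III and IV are encoded in part by mitochondrial DNA, so most of their nuclear members are structural or assembly subunits. Proximal tubular cells, the most abundant cells of the cortex, depend on this machinery for the energy of solute reabsorption.

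The libraries read polyadenylated RNA near the 3′ end of each transcript, in male C57BL/6J mice. Pt-CrAT mice carry Cre recombinase under the Ggt promoter, which removes floxed Crat (carnitine acetyltransferase) from proximal tubular cells, and fl/fl mice have floxed Crat and no Cre promoter named in their labels. At 12 months, with LFD in the titles, there were 3 Pt-CrAT and 3 fl/fl libraries, at 15 months, with chow in the titles, 3 and 3, and at 24 months, also with chow, 5 and 5. The labels do not spell out LFD, which changes together with age, so levels at 12 months were not set against the older ages. Whole cortex also holds cells outside the reach of this Cre, and in such bulk samples fewer cells of a type and less RNA per cell cannot be told apart. Single libraries are called by their titles, which begin with CrAT for Pt-CrAT and with Wt for fl/fl animals. Litters and cages are not labelled, so p-values measure only the spread between these libraries.

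Total counts were 12175804 to 17447367 per library, with 53157575 in CrAT12MLFD345. Of 10 proximal tubule markers, all 10 were in the table, with summed levels of 7658 CPM or more in every library. Crat itself ran against the labels at 15 months. It stood at 63.1, 72.6 and 71.8 CPM in the libraries labelled Pt-CrAT, all above the 41.5, 34.3 and 60.0 CPM of those labelled fl/fl. At 24 months the 5 Pt-CrAT libraries (28.4 to 38.9 CPM) lay below the 5 fl/fl libraries (43.5 to 112 CPM), with a log2 fold change of -1.04 (SE 0.21, edgeR adjusted p = 0.177). At 12 months the groups overlapped (42.4, 81.1 and 64.2 CPM in Pt-CrAT, 54.0, 84.6 and 98.0 CPM in fl/fl). The 15-month libraries are therefore called by their labels below.

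Summed over its 9 members, complex III stood at 8413, 7972 and 6643 CPM in the Pt-CrAT libraries of 12 months, against 5121, 6634 and 6733 CPM in fl/fl. Only the lowest Pt-CrAT library fell inside the fl/fl range. At 24 months the order was the other way round, at 4807 ± 409 CPM in Pt-CrAT and 5707 ± 363 CPM in fl/fl (SD, n = 5 each). The highest Pt-CrAT library there (5337 CPM) was just below the lowest fl/fl library (5361 CPM). The complex IV sum overlapped between genotypes at all 3 ages. For ATP synthase the sums overlapped as well, at 9228 ± 786 CPM in Pt-CrAT and 10235 ± 639 CPM in fl/fl at 24 months (SD, n = 5 each). A few abundant genes weigh most in such sums, so the members are taken singly below.

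**Figure D1:**
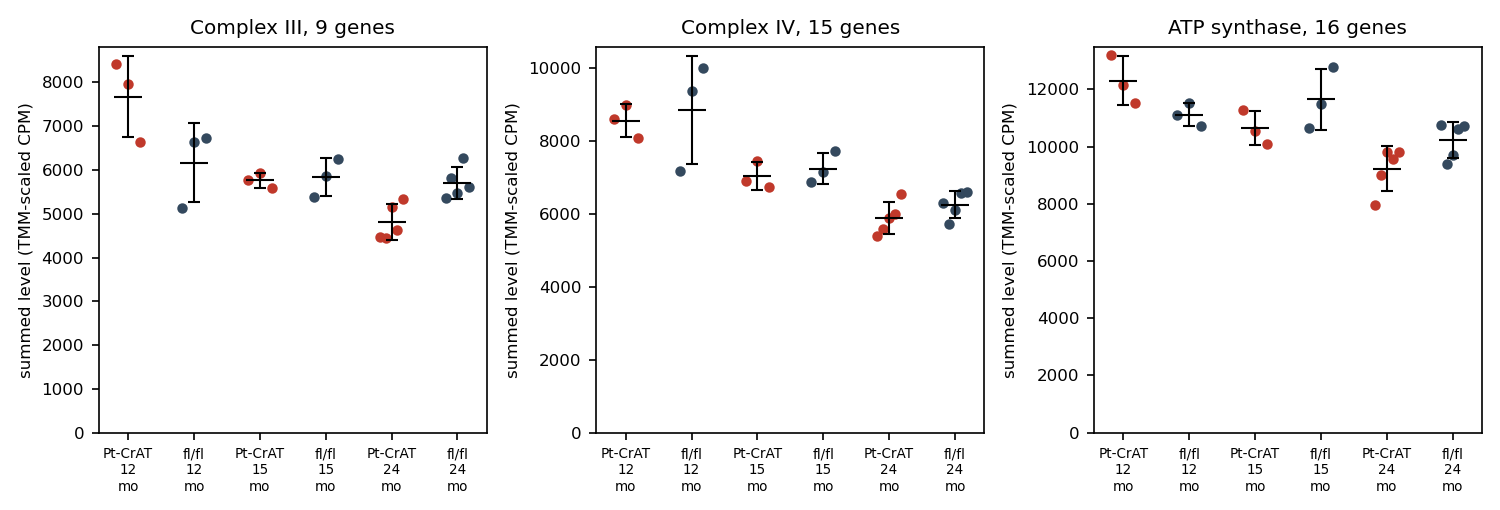
Summed level of the members of each complex (TMM-scaled CPM, linear axis from 0) in the 6 groups, with Pt-CrAT in red and fl/fl in dark blue. Points are libraries and bars the mean and SD; the complex III sums do not overlap at 24 months, with Pt-CrAT at most 5337 CPM and fl/fl at least 5361 CPM.

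At 12 months 6 members were higher and 2 lower in Pt-CrAT. The higher ones were Uqcr10, Uqcr11 and Uqcrc1 of complex III and Atp5k, Atp5j2 and Atp5d of ATP synthase, and the lower ones Cox5a of complex IV and Atp5f1 of ATP synthase. Together these 8 are 20.5% of the 39 members tested, close to the 16.4% of all genes called in this comparison (8.41% higher and 7.95% lower). Calls are adjusted p-values under 0.05 in edgeR's quasi-likelihood test, with Benjamini-Hochberg adjustment over all genes tested. The member median was -0.01 on the log2 scale, beside 0.00 over all genes, with 20 members below 0, where 49.9% of all genes were. An unadjusted p under 0.05 was reached by 16 members and by 33.7% of genes. By complex, 3 of 9 members of complex III were called, all higher, with a median of 0.15. Of 14 members of complex IV 1 was called, lower, with a median of 0.03, and of 16 of ATP synthase 3 were higher and 1 lower, with a median of -0.03.

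Among complex III members, Uqcrc1 encodes core protein 1, a large subunit on the matrix side (chromosome 9, 108936633 to 108949623, plus strand, GRCm38). Its level was 620, 586 and 530 CPM in Pt-CrAT, against 413, 467 and 424 CPM in fl/fl. Every Pt-CrAT library lay above every fl/fl library (log2 fold change 0.41, SE 0.14, adjusted p = 0.0445). Uqcr10 is a small accessory subunit next to cytochrome c1 (chromosome 11, 4701973 to 4704342, minus strand). It was measured at 2231, 2053 and 1509 CPM in Pt-CrAT, and at 846, 1409 and 1430 CPM in fl/fl. The groups did not overlap, though CrAT12MLFD345 was near the upper fl/fl libraries and Wt12MLFD326 far below its group (log2 fold change 0.65, SE 0.18, adjusted p = 0.0236). Uqcr11, another small accessory subunit, had 937, 852 and 687 CPM in Pt-CrAT, against 407, 581 and 662 CPM in fl/fl (0.58, SE 0.17, adjusted p = 0.0286). The same libraries stood at the edges, CrAT12MLFD345 and Wt12MLFD326. Of the 6 others in complex III none passed: the hinge protein Uqcrh had a log2 fold change of 0.34, the ubiquinone-binding Uqcrq 0.15, core protein 2 Uqcrc2 -0.20, cytochrome c1 (Cyc1) -0.26, the ubiquinone-binding Uqcrb -0.53 and the Rieske iron-sulfur protein Uqcrfs1 -0.82.

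In complex IV, Cox5a alone passed, with the lower level in Pt-CrAT. Cox5a encodes a nuclear subunit on the matrix face of the enzyme (chromosome 9, 57521274 to 57532426, plus strand). It was at 446, 453 and 544 CPM in Pt-CrAT, against 627, 772 and 626 CPM in fl/fl. The groups did not overlap (log2 fold change -0.49, SE 0.15, adjusted p = 0.034). Its partner on the matrix side, Cox5b, also had separate groups, at 159, 182 and 194 CPM in Pt-CrAT and 226, 237 and 207 CPM in fl/fl, but missed the threshold (-0.32, adjusted p = 0.106). The widest value of the complex, -1.56 for the accessory subunit Cox7c, rested on levels of 38.9, 50.4 and 134 CPM in Pt-CrAT, against 393, 127 and 144 CPM in fl/fl. With a standard error of 0.69 it was not called, and Wt12MLFD326 alone stood well above the rest.

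ATP synthase contributed 4 of the calls. Atp5k encodes subunit e, at the membrane part where dimers form (chromosome 5, 108433244 to 108434448, minus strand). Levels were 4103, 3584 and 2739 CPM in Pt-CrAT, against 1043, 2245 and 2498 CPM in fl/fl, without overlap. This was the largest difference among the members called (log2 fold change 0.85, SE 0.24, adjusted p = 0.0236). Atp5j2, subunit f of the same membrane part (chromosome 5, 145183698 to 145192062, minus strand), had 822, 728 and 588 CPM in Pt-CrAT, against 437, 563 and 522 CPM in fl/fl. Its groups were separate by a small margin (0.49, SE 0.15, adjusted p = 0.0294). Atp5d, the delta subunit of the rotating central stalk (chromosome 10, 80138632 to 80145818, plus strand), stood at 921, 741 and 707 CPM in Pt-CrAT and at 641, 558 and 544 CPM in fl/fl (0.44, SE 0.13, adjusted p = 0.0268). Atp5f1, subunit b of the stationary peripheral stalk (chromosome 3, 105942698 to 105960099, minus strand), was the member that fell, with 247, 238 and 300 CPM in Pt-CrAT, against 506, 357 and 336 CPM in fl/fl (-0.61, SE 0.20, adjusted p = 0.0375). Both had separate groups, and subunits of the same machine lay on opposite sides. The catalytic subunits did not pass, with log2 fold changes of -0.19 for alpha (Atp5a1) and -0.39 for beta (Atp5b).

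**Figure D2:**
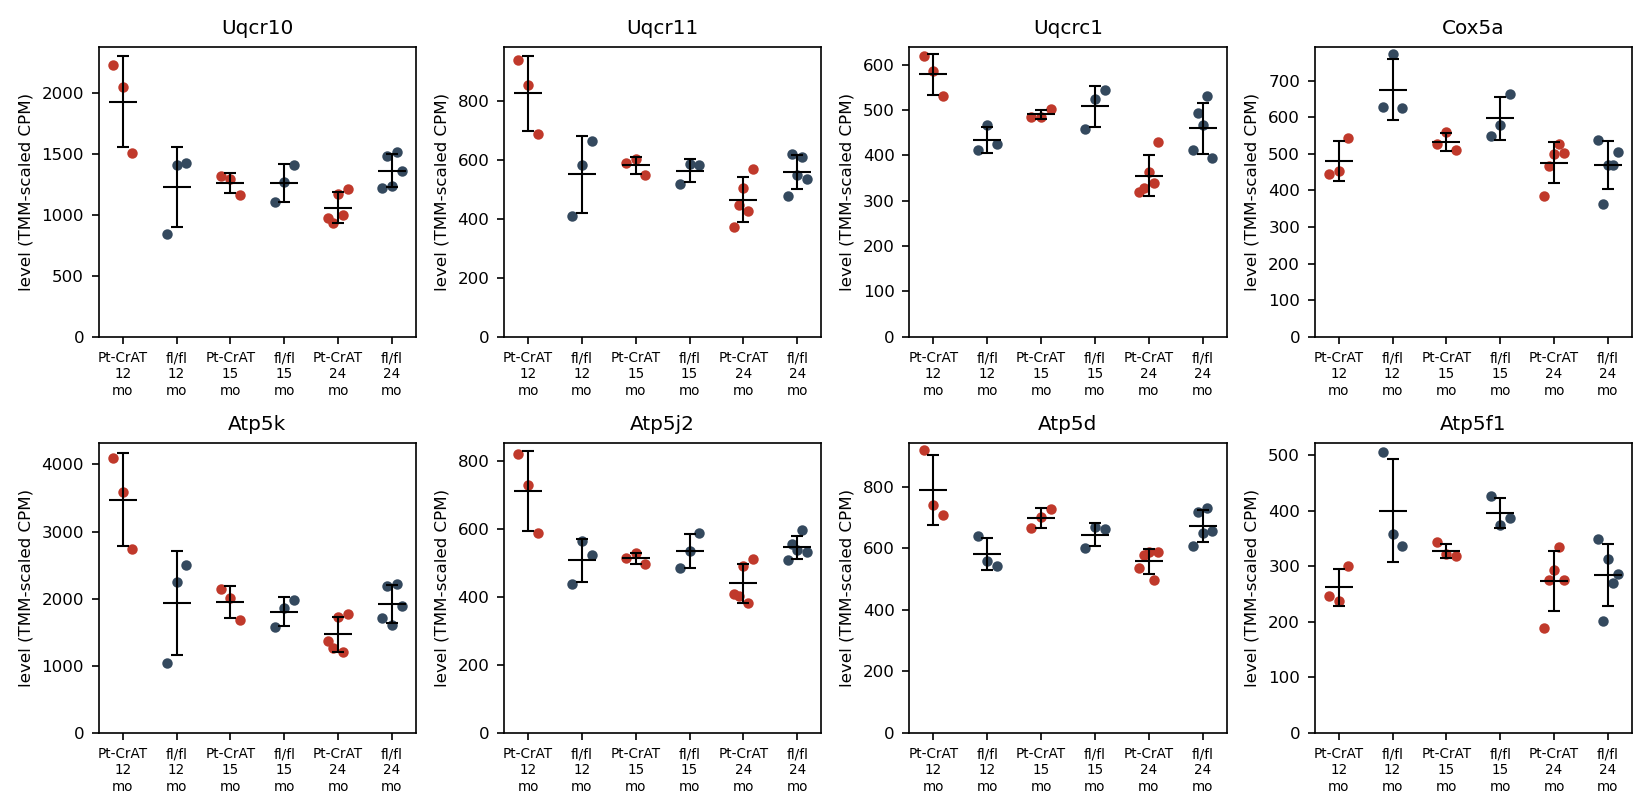
Level of the 8 members called at 12 months (TMM-scaled CPM, linear axes from 0) in the 6 groups, with Pt-CrAT in red and fl/fl in dark blue. Points are libraries and bars the mean and SD; at 12 months all 8 have separate groups, while at 24 months Uqcr10 and Atp5d are separate the other way, with Pt-CrAT below fl/fl.

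In all, 8 members had every Pt-CrAT library above every fl/fl library at 12 months and 8 had them all below, of 39. Over all genes these shares were 16.3% and 13.8%. Calls depended on single libraries, over all genes as in the members. No member was left without CrAT12MLFD328 or without CrAT12MLFD337, and 1 without Wt12MLFD326 (Atp5d), where 53, 391 and 408 genes were called in place of 2464. The count was 10 members without CrAT12MLFD345 or without Wt12MLFD368, with 3513 and 3298 genes. None was left either when only the 6 libraries of this age were fitted (1 gene called) or when CrAT12MLFD328 and Wt12MLFD326 were both taken out (19 genes). Markers of adipocytes, cells outside the tubule, moved with this comparison: 5 of 6 tested were higher in Pt-CrAT, and the 7 in the table had summed levels of 58.7 to 235 CPM in Pt-CrAT and 29.6 to 70.0 CPM in fl/fl. Of 10 proximal tubule markers 2 were lower, with a median of 0.01. The part of either list in the members' values was not tested. Atp5k has a near-identical pseudogene, Atp5k-ps2, with 94 counts over all libraries, against 699367 for Atp5k. Exons of Cox5a, Atp5d and Atp5f1 overlap a gene on the other strand, whose reads cannot be told apart if counting ignored strand.

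Promoters of 32 of the 40 members were found in the RefSeq table (GRCm38.p6; 250 bases before to 50 after the start). The 4 below are shown because 3 belong to genes that were higher in Pt-CrAT at 12 months and the fourth to the ATP synthase gene that was lower. Capitals mark matches on either strand to 4 short motifs: CGCATGCG for NRF1, CCGGAAG for ETS factors, AAGATGGC for YY1 and GGGCGG for SP1. The regions are chr11:4704295-4704594 (minus) for Uqcr10, chr9:108936398-108936697 (plus) for Uqcrc1, chr5:108434350-108434649 (minus) for Atp5k and chr3:105959214-105959513 (minus) for Atp5f1.
Uqcr10: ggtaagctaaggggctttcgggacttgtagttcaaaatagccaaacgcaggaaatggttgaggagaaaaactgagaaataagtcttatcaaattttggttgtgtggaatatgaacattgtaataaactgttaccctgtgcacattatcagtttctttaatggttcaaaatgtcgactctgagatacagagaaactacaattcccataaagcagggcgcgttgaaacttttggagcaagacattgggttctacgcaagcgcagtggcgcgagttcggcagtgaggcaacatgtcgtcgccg
Uqcrc1: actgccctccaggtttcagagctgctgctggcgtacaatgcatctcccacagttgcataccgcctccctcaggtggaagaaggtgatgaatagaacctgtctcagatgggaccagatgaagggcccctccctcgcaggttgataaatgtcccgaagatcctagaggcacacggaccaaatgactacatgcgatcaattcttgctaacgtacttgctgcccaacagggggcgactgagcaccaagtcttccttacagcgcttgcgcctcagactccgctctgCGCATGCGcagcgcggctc
Atp5k: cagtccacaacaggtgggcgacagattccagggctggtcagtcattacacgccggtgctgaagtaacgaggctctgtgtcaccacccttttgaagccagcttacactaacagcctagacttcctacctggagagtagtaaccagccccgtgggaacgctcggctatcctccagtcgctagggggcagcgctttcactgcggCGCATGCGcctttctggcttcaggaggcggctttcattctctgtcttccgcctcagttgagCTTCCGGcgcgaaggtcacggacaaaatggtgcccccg
Atp5f1: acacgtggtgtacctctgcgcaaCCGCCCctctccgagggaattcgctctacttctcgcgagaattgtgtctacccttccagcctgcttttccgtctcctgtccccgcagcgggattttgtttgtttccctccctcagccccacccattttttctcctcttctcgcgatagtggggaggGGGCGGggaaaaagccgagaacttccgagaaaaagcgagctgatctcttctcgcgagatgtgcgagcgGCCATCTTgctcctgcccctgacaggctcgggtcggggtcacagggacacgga

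The NRF1 letters, named for a factor known to act on many respiratory genes, begin at base 32 in Uqcrc1 and at base -49 in Atp5k, counting the start as 1 and the base before it as -1. Atp5k also holds ETS letters at base 13. Atp5f1 holds the YY1 letters at base -3 and the SP1 letters at a pair of places further upstream, and the Uqcr10 window has none of the 4 motifs. Of the 32 members, 7 hold the NRF1 letters (21.9%), against 2.1% of 27025 genes in the same window. The ETS letters occur in 31.2% of members and 9.9% of genes, the YY1 letters in 9.4% and 3.2%, and the SP1 letters in 34.4% and 38.2%. Among the members called at 12 months, NRF1 letters are found in Uqcr11, Uqcrc1 and Atp5k, all higher in Pt-CrAT, and SP1 letters in Cox5a and Atp5f1, both lower. The other 3 higher members hold neither. NRF1 letters are also found in Cox6a1, Atp5g2, Atp5j and Atp5l, which did not pass. SP1 letters occur too in Cox6a1, Cox6b2, Cox7a2, Cox7a2l, Atp5b, Atp5e, Atp5g2, Atp5j and Atp5s, none of them called at 12 months. YY1 letters are in Atp5j2, which was higher, as well as in Atp5f1, which was lower, and in Atp5j, which was not called. A match describes letters in a window and shows no binding.

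A feature of the transcripts that the choice of members did not use ran alongside these differences. GC content was taken from the last 300 bases of a single annotated transcript per gene, chosen by annotation rank, then by length. Where the tags fall on that transcript was not examined. This GC content ranked with the 12-month log2 fold change at a Spearman coefficient of 0.72 over the 39 members. Over 14996 other genes the coefficient was 0.31. At 24 months the same coefficients were -0.52 and -0.22. All points come from the same libraries, so these are descriptions without a test. At 12 months the 19 members above the median GC of 45.3% had a median log2 fold change of 0.24 and all 6 higher calls, and the other 20 a median of -0.32 and both lower calls. Leaving out any single library kept the 12-month coefficient between 0.57 and 0.75, and the 24-month coefficient between -0.59 and -0.39. An alternative added after the values were seen took a smooth dependence on this GC content, fitted over all genes with enough reads, out of each library. With this offset 2 members stayed called by edgeR at 12 months, Atp5k (0.67, adjusted p = 0.0314) and Uqcr10 (0.45, adjusted p = 0.0472). They are 5.13% of the members tested, below the 13.3% of all genes called with the same offset. The offset did not take out all of the trend within the members. Their coefficient was then still 0.43 at 12 months and -0.31 at 24 months. Of the calls lost, the log2 fold change was 0.06 for Uqcrc1, 0.11 for Atp5d, 0.27 for Uqcr11, 0.31 for Atp5j2, -0.37 for Cox5a and -0.41 for Atp5f1.

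**Figure D3:**
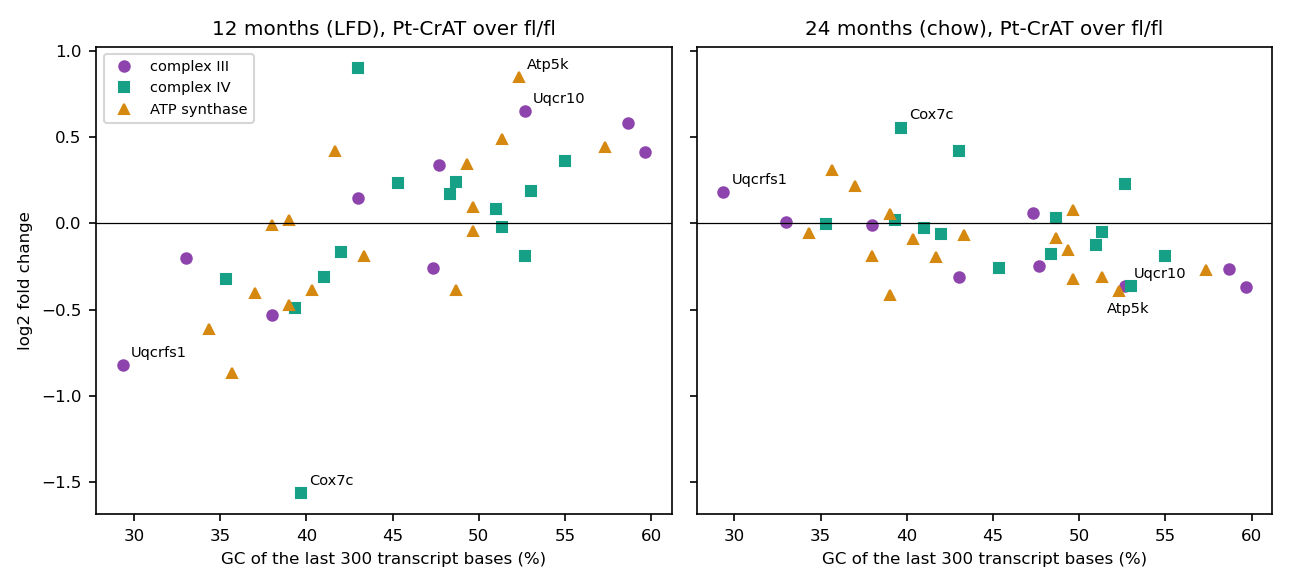
Log2 fold change of each of the 39 members tested (Pt-CrAT over fl/fl) against the GC content of its last 300 transcript bases, at 12 months (left) and 24 months (right), on a shared vertical axis. Each point is a gene, marked by complex; values climb with GC at 12 months (Spearman 0.72) and decline at 24 months (-0.52).

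Within groups, some members varied together and others in opposite directions. Over 37 members with enough reads, the first principal component of the deviations from the group means took 61.9% of the variance. Deviations were not scaled by gene, so members of wide spread weigh most in this component. Its loadings ranked with GC at a Spearman coefficient of -0.64. They had both signs, and the largest were 0.60 for Cox7c, 0.39 for Atp5j and 0.33 for Uqcrfs1, with -0.21 for Cox7a2l on the other side. Cox7c had the widest spread within groups (SD 0.88 on the log2 scale): at 24 months it ran at 58.9, 144, 92.5, 199 and 76.9 CPM in Pt-CrAT, and at 188, 22.2, 53.3, 37.0 and 88.1 CPM in fl/fl. Both genotypes spread over most of the same range. Uqcr10 and Atp5k, from different complexes, correlated at r = 0.97 over the deviations of 22 libraries, and Uqcrfs1 and Cox7c at 0.96. Pairs from the same complex had a median r of 0.10 (219 pairs, from -0.81 to 0.97). Those from different complexes also had 0.10 (447 pairs, from -0.88 to 0.97).

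At 24 months no member passed edgeR's test, and no gene of the whole table did (0%). The direction leaned towards lower levels in Pt-CrAT, with 27 of 39 members below 0, where 47.1% of all genes were. Medians on the log2 scale were -0.25 for complex III, -0.04 for complex IV and -0.12 for ATP synthase, against 0.02 over all genes. An unadjusted p under 0.05 was reached by 10 members and by 9.35% of genes. DESeq2 called a single member, Uqcrc1 (adjusted p = 0.0452), among 8 genes, and limma-voom no member.

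Uqcrc1 had the smallest p of the members at this age. It was at 319, 327.5, 363, 340 and 429 CPM in Pt-CrAT, against 412, 493, 468, 531 and 394 CPM in fl/fl. The groups overlapped only through CrAT24Mchow146 and Wt24Mchow145 and Wt24Mchow168 (log2 fold change -0.37, 95% interval -0.60 to -0.14, adjusted p = 0.418). Uqcrq, a small subunit near the ubiquinone site, read 325.6, 375, 431, 335 and 424 CPM in Pt-CrAT, against 489, 411, 438, 515 and 494 CPM in fl/fl (-0.31, adjusted p = 0.461). Its groups overlapped through CrAT24Mchow135, CrAT24Mchow146 and Wt24Mchow154. Uqcr10 was at 976, 931, 1175, 998 and 1215 CPM in Pt-CrAT and 1221, 1486, 1238, 1515 and 1357 CPM in fl/fl. Its groups did not overlap, opposite in direction to 12 months (-0.36, adjusted p = 0.468).

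In ATP synthase, the central stalk subunits epsilon and delta had separate groups. Atp5e, which encodes epsilon (chromosome 2, 174461072 to 174464105, minus strand), stood at 259, 260, 290, 228 and 309 CPM in Pt-CrAT, against 318, 371, 335, 347 and 312 CPM in fl/fl (-0.32, SE 0.10, adjusted p = 0.461). Atp5d measured 537, 578, 589, 496 and 588 CPM in Pt-CrAT and 608, 717, 650, 732 and 656 CPM in fl/fl (-0.27, SE 0.10, adjusted p = 0.465). With Uqcr10 they are the 3 members whose Pt-CrAT libraries all lay below the fl/fl libraries, and none lay all above, where these shares are 0.797% and 0.737% of all genes. Atp5j2 overlapped, with 408, 404, 492, 382 and 511 CPM in Pt-CrAT, against 508, 555, 538, 596 and 531 CPM in fl/fl (-0.31, adjusted p = 0.461).

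In complex IV the median was nearest to 0 at 24 months. Cox7a1, the heart-type isoform of subunit VIIa, was at 20.4, 17.4, 20.6, 22.2 and 26.4 CPM in Pt-CrAT, against 25.4, 30.0, 24.9, 32.4 and 25.0 CPM in fl/fl (-0.36, adjusted p = 0.461). CrAT24Mchow146 overlapped the fl/fl libraries and the other 4 lay below them. The liver-type Cox7a2 had 501, 467, 539, 466 and 590 CPM in Pt-CrAT and 536, 649, 625, 668 and 583 CPM in fl/fl (-0.26, adjusted p = 0.479). Cox5a, called at 12 months, had a log2 fold change of 0.02 here, with a 95% interval of -0.23 to 0.27. Proximal tubule markers moved beside these values, with sums of 7658 to 10436 CPM in Pt-CrAT and 10282 to 11508 CPM in fl/fl, 7 of 10 below 0 and a median log2 fold change of -0.22. CrAT24Mchow123 and CrAT24Mchow136 were also low in the androgen-dependent tubular transcript Kap, at 4565 and 2853 CPM. The other 8 libraries had 18928 CPM or more. No member passed without CrAT24Mchow123 and CrAT24Mchow136 either. With them no gene of the whole table passed, so this result cannot show their influence. The part of tubular content in the members' values was not tested.

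**Figure D4:**
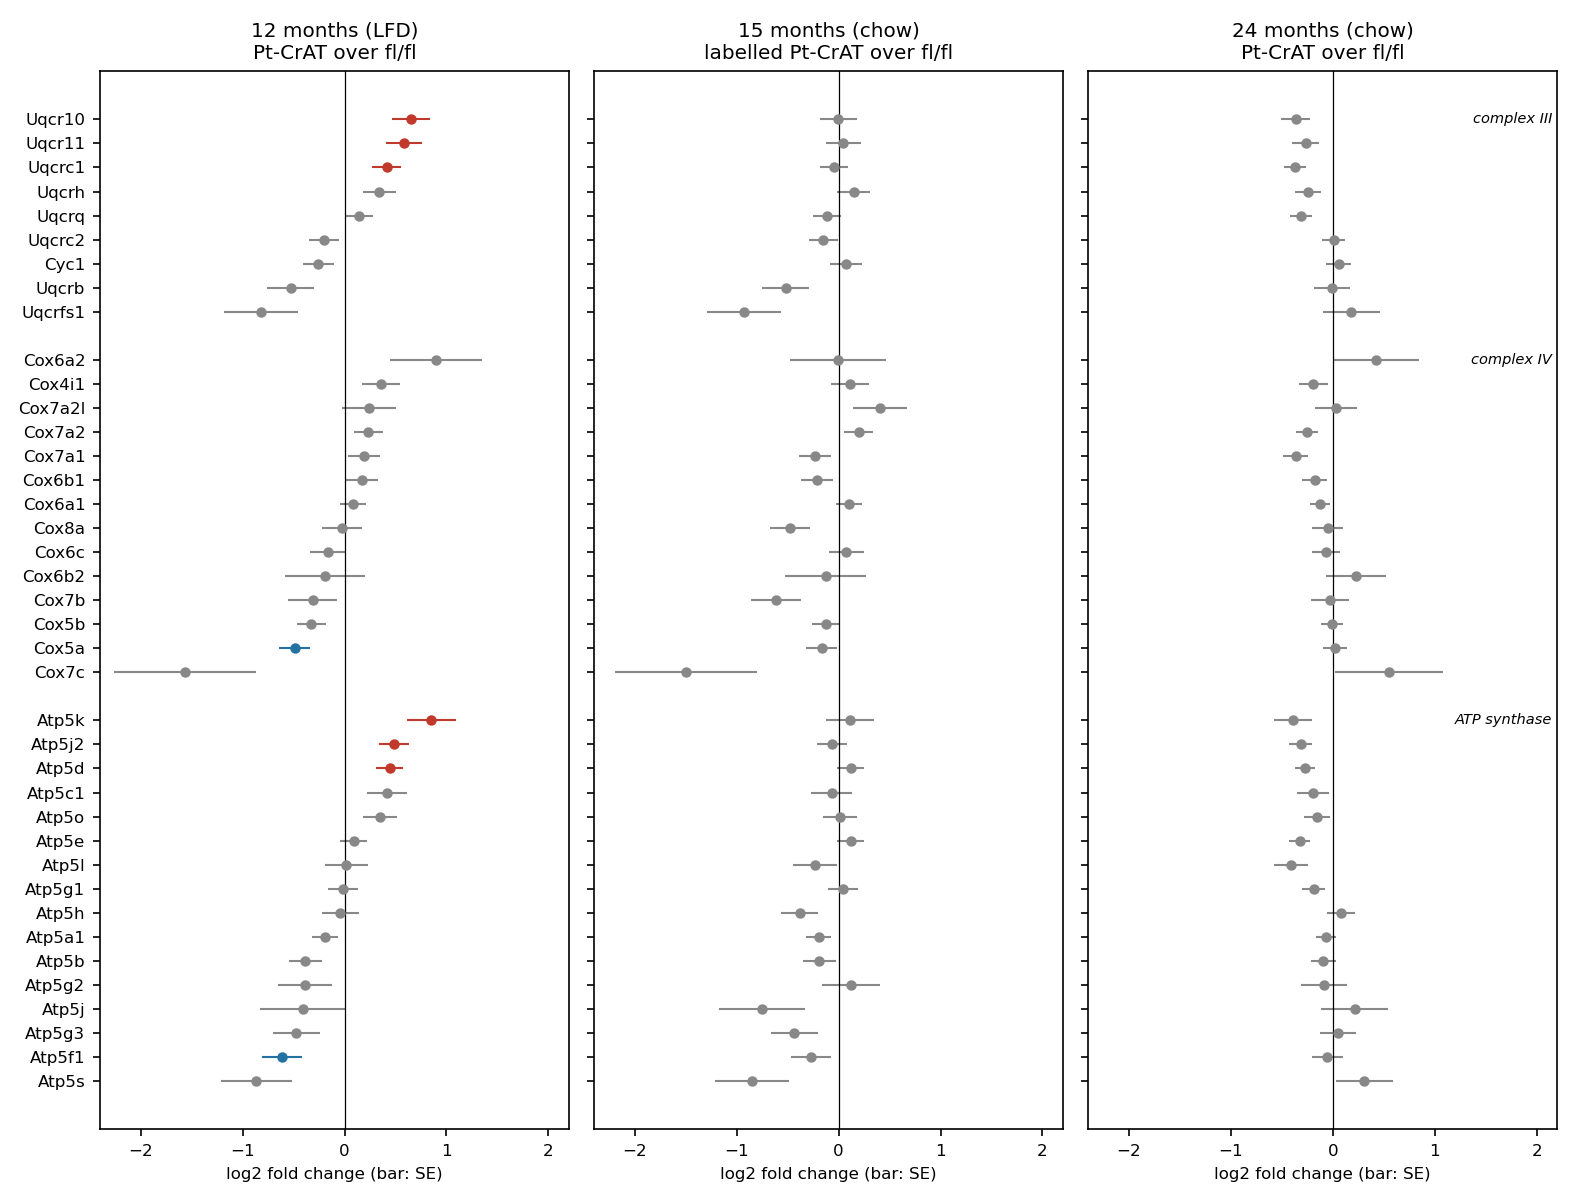
Log2 fold change of the 39 members tested, Pt-CrAT over fl/fl, at 12, 15 and 24 months (left to right), grouped by complex and ordered by the 12-month value. Points are edgeR estimates and bars their SE; red and blue mark calls at an adjusted p under 0.05, higher and lower, which occur at 12 months only, and 27 of 39 points lie below 0 at 24 months.

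At 15 months no gene passed in edgeR between the libraries labelled Pt-CrAT and fl/fl (0%), and no member passed in DESeq2 or limma-voom either. An unadjusted p under 0.05 was reached by 7 members and 8.29% of genes. Of 39 members, 25 were below 0, against 49.2% of genes, with a median of -0.12. Uqcrfs1 was at 170, 103 and 121 CPM in libraries labelled Pt-CrAT, against 200, 208 and 341 CPM in those labelled fl/fl (log2 fold change -0.92, SE 0.36, adjusted p = 0.581). Cox7b, an accessory subunit of complex IV, had 306, 249 and 232 CPM under the Pt-CrAT label and 319, 362 and 522 CPM under the fl/fl label (-0.61, adjusted p = 0.581). Atp5h, subunit d of the peripheral stalk of ATP synthase, stood at 203, 166 and 164.6 CPM under the Pt-CrAT label and 209, 216 and 271 CPM under the fl/fl label (-0.38, adjusted p = 0.581). All 3 had separate groups, among 11 members on the lower side and 3 on the higher side in all (Uqcrh, Cox7a2 and Cox7a2l), against 12.7% and 11.6% of genes. Since Crat ran against the labels here, these directions hold for the labels only.

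The genotype difference itself was then compared between ages. It varied among the 3 settings in 5 members, Uqcr10, Uqcrc1, Atp5d, Atp5j2 and Atp5k, or 12.8% of those tested against 5.07% of genes (2-degree-of-freedom edgeR test, adjusted p from 0.0349 to 0.0441). Since the 15-month labels are in doubt, a direct contrast of 24 against 12 months was added after the values were seen. It called the same 5 and Uqcr11, all with a lower Pt-CrAT over fl/fl ratio at 24 months. These 6 are 15.4% of the members tested, beside 17% of all genes called in either direction (8.66% lower and 8.34% higher). The change was -1.24 (SE 0.30) for Atp5k, -1.02 (SE 0.23) for Uqcr10, -0.85 for Uqcr11, -0.80 for Atp5j2, -0.78 for Uqcrc1 and -0.71 for Atp5d on the log2 scale. In all 6 the log2 fold change was above 0 at 12 months and below 0 at 24 months. All 6 were among the members called higher at 12 months, and the contrast favours a fall from there. These signs are therefore largely set by the selection, and none of the 6 passed edgeR's test at 24 months. Cox5a and Atp5f1, lower at 12 months, were not called here. No call among settings was left without any of CrAT12MLFD328, CrAT12MLFD337, CrAT24Mchow124 or CrAT24Mchow136 or Wt24Mchow154 or Wt24Mchow165, or with the GC offset. There was 1 without any of Wt12MLFD326 or CrAT15Mchow185 or CrAT15Mchow204, 2 without any of Wt15Mchow225, Wt24Mchow164 or Wt24Mchow168, and 8 without Wt24Mchow145 or CrAT12MLFD345. Over all genes, at most 266 were called in each setting that left no member by omitting 1 library, in place of 764. With the GC offset the direct contrast called 5 members (12.8%) and 13.7% of genes. Uqcr10 (-0.73), Atp5j2 (-0.55) and Atp5k (-0.98) were among them, with Uqcrq and Atp5c1. Uqcr11 (-0.41, adjusted p = 0.114), Uqcrc1 (-0.30, adjusted p = 0.209) and Atp5d (-0.27, adjusted p = 0.294) were not. In the direct contrast without the offset none was left without CrAT12MLFD328, with 10 calls without Wt12MLFD327, 11 without Wt12MLFD368 and 13 without Wt24Mchow145 or CrAT12MLFD345.

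Levels at 24 months were next set against 15 months, where both ages have chow in the title. Crat itself changed by -0.93 on the log2 scale in libraries labelled Pt-CrAT (edgeR adjusted p = 0.0165). In those labelled fl/fl it changed by 0.72 (edgeR adjusted p = 0.115). If the 15-month labels were exchanged, the comparison under either label would mix age with genotype. In Pt-CrAT-labelled libraries 5 members were lower at 24 months and none higher, 12.8% of those tested, against 5.71% of genes lower, 5.61% higher and 11.3% called in either direction. Of 39 members 31 were below 0, as were 45.7% of genes. Uqcrc1 fell to the 24-month levels given above, against 485, 486 and 502 CPM at 15 months (log2 fold change -0.47, SE 0.12, adjusted p = 0.0174). Uqcrq fell as well, with 497, 500 and 470 CPM at 15 months (-0.37, SE 0.12, adjusted p = 0.0487). In complex IV Cox7a1 fell, with 33.9, 26.8 and 27.0 CPM at 15 months (-0.45, SE 0.14, adjusted p = 0.0411). In all 3 genes every 24-month library lay below every 15-month library.

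The other calls were in ATP synthase. Atp5e had 342, 383 and 385 CPM at 15 months, all above its 24-month libraries (-0.46, SE 0.12, adjusted p = 0.015). Atp5g1, a gene for the c subunit of the proton-driven ring (chromosome 11, 96068852 to 96075670, minus strand), stood at 69.7, 78.9, 78.6, 67.5 and 95.9 CPM at 24 months, against 100, 115 and 114 CPM at 15 months (-0.49, SE 0.13, adjusted p = 0.0172). In total 15 of 39 members had separate age groups in libraries labelled Pt-CrAT, all lower, against 11.3% of genes. None of the 5 calls was left without CrAT15Mchow185 or CrAT15Mchow204, or without both low-Kap libraries of 24 months, where 421, 393 and 417 genes were called in place of 1705. There were 3 without any of CrAT15Mchow183 (1646 genes), CrAT24Mchow123 (1184), CrAT24Mchow124 (1386) or CrAT24Mchow136 (1097).

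In fl/fl-labelled libraries no member passed between 24 and 15 months (1.3% of genes did, 0.823% higher and 0.478% lower), and DESeq2 called only Uqcrb among members (adjusted p = 0.0212). An unadjusted p under 0.05 was reached by 13 members and by 21.7% of genes. Uqcrb was at 252, 112, 202, 192 and 226.7 CPM at 24 months, against 269, 302 and 413 CPM at 15 months, without overlap (-0.73, SE 0.20, adjusted p = 0.0632 in edgeR). Without Wt24Mchow145 edgeR called 3, Uqcrb, Uqcrfs1 and Cox7c, with 756 genes in place of 196. The member median was -0.25, close to the -0.23 of Pt-CrAT, with all genes at 0.02 and 0.04. Below 0 were 28 of 39 members (47.8% of genes), and 8 had separate age groups, all lower (8.26% of genes). A test of age by genotype called no member (0% of genes), with 6 members and 15% of genes at an unadjusted p under 0.05, so the 5 calls in Pt-CrAT are not shown to belong to that genotype. DESeq2 called none in that test either.

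**Figure D5:**
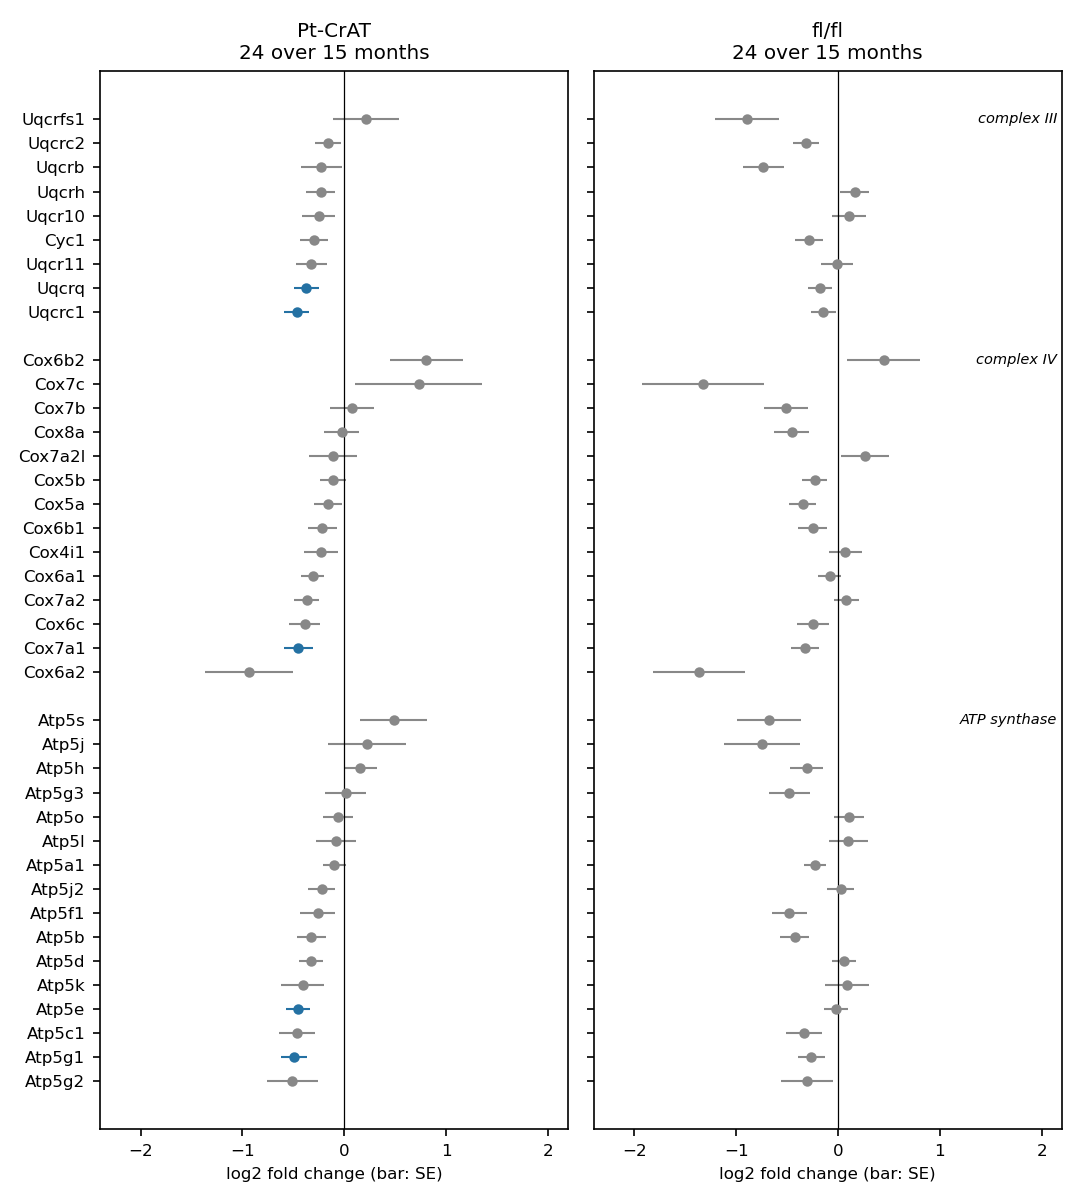
Log2 fold change of the 39 members tested, 24 over 15 months, in libraries labelled Pt-CrAT (left) and fl/fl (right), grouped by complex and ordered by the Pt-CrAT value. Points are edgeR estimates and bars their SE; blue marks the 5 members called lower, all in Pt-CrAT, and most points of both panels lie below 0 (31 and 28 of 39).

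The age change averaged over both genotypes would be the same if the 2 labels of the 15-month groups were exchanged, and this contrast was added after the values were seen. It called 11 members, all lower at 24 months, or 28.2% of those tested against 6.97% of genes lower, 9.41% higher and 16.4% in either direction. They are Uqcrb, Uqcrc1, Uqcrq and Cyc1 of complex III, Cox6a2, Cox6c and Cox7a1 of complex IV, and Atp5b, Atp5c1, Atp5f1 and Atp5g1 of ATP synthase. Cox6a2 is near the floor, with means of 1.53 CPM under either label at 15 months. At 24 months they were 0.79 CPM in Pt-CrAT and 0.58 CPM in fl/fl. Of 39 members 35 were below 0 (48.1% of genes), with a median of -0.23 against 0.02 over all genes. Catalytic beta (Atp5b) was at 1079, 1233, 1212, 1365 and 1350 CPM in Pt-CrAT and 1525, 1066, 1385, 1256 and 1420 CPM in fl/fl at 24 months. At 15 months it had 1514, 1552 and 1618 CPM under the Pt-CrAT label and 1755, 1731 and 1863 CPM under the fl/fl label (-0.37, SE 0.10, adjusted p = 0.0153). Atp5c1, the gamma subunit that turns inside the catalytic head, changed by -0.40 (SE 0.12, adjusted p = 0.0315), and cytochrome c1 (Cyc1) by -0.29 (SE 0.10, adjusted p = 0.0462).

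Atp5b, Atp5g1 and Cox7a1 passed without each single library in turn, and the count of calls ran from 3 without Wt15Mchow227 (1713 genes, in place of 2467) to 12. It was 4 without CrAT15Mchow204 (1453 genes), 5 without CrAT15Mchow185 (1574), 6 without CrAT24Mchow123 (1967) and 7 without Wt15Mchow225 (1928) or without Wt24Mchow154 (2126). Without CrAT24Mchow123 and CrAT24Mchow136 of 24 months 5 calls remained (Uqcrb, Cox6a2, Cox7a1, Atp5b and Atp5g1), with 1660 genes. Proximal tubule markers were lower with age too, with 4 of 10 called, 8 of 10 below 0 and a median of -0.45. Sums of these markers were 7658 to 10436 CPM in Pt-CrAT and 10282 to 11508 CPM in fl/fl at 24 months, and 13473 to 14034 CPM and 12335 to 13715 CPM at 15 months. Markers of thin limb and medulla were higher with age, 5 of 5 called with a median of 0.74. Both distal convoluted tubule markers were lower, with a median of -0.89. In macrophage (4 tested), thick ascending limb (2) and erythrocyte (5) markers 1 each was called, higher. The part of any of these lists in the members' change was not tested.

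Several complex IV members are tissue isoforms of each other. Cox6a1, the general form, was at 396 CPM or more in every library, and the muscle form Cox6a2 at 0.233 to 4.20 CPM. Cox6b1 was at 369 CPM or more, and Cox6b2, known from testis, at 3.20 to 14.0 CPM. Cox8a was at 279 CPM or more, and Cox8b, known from muscle and brown fat, at 0 to 0.928 CPM. The striated muscle markers Ckm, Myh7, Tnnt3 and Mb are not among the rows of the table, and Acta1 was at 0.536 CPM at most. Of 4 brown adipocyte markers 2 were in the table, with summed levels of 0.229 to 15.5 CPM. Cox7a1, known from muscle and brown fat, was at 17.4 to 40.7 CPM, and the part of such cells in its level was not tested. Cox7a2l, the supercomplex factor related to Cox7a2, had 306, 336 and 231 CPM in Pt-CrAT at 12 months, against 118, 224 and 396 CPM in fl/fl. The fl/fl libraries enclosed the Pt-CrAT ones on both sides (log2 fold change 0.24, SE 0.26, edgeR adjusted p = 0.554). Cox4i1, the general form of the largest nuclear subunit, was at 1418, 1542 and 1131 CPM in Pt-CrAT, against 701, 1070 and 1414 CPM in fl/fl, with overlap (0.36, adjusted p = 0.172). At 24 months the log2 fold change was 0.03 for Cox7a2l and -0.19 for Cox4i1. Of the c subunit genes, which encode the same mature protein, Atp5g3 was at 1137 to 3087 CPM, Atp5g1 at 67.5 to 154.2 CPM and Atp5g2 at 2.93 to 11.4 CPM. Levels of isoforms are tag counts near the 3′ end and were not compared by a test. Reads of Atp5g2 may be shared with Gm10175, whose last bases are identical over 296 bases.

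Around the members, the remaining genes of the pathway gave the following counts. Of 35 complex I genes, 8 were higher and 4 lower in Pt-CrAT at 12 months, or 34.3%, against 16.4% of all genes called. Among them were Ndufb7 (0.86, adjusted p = 0.00572), Ndufs8 (0.80) and Ndufc2 (-0.68). At 24 months none passed, as over all genes, while 30 were below 0, where 47.1% of all genes were. Of 25 complex IV assembly factors, 4 were higher at 12 months (the copper-delivery proteins Sco1 and Sco2, and Cmc2 and Coa4) and 1 lower, Coa6 (-1.09, adjusted p = 0.0161). Together they are 20% of that list, near the share over all genes. The complex III assembly factor Uqcc3 was higher at 12 months (0.66, adjusted p = 0.0237) among 6 listed (16.7%). No complex II gene was called there, of 4, nor any of 6 further ATP synthase subunits and assembly factors, cytochrome c or Ndufa4, or the mitochondrially encoded mt-Cytb and mt-Co1. Between 24 and 15 months in Pt-CrAT, 7 complex I genes, the assembly factor Uqcc1 (-0.53) and the complex IV factor Higd2a (-0.73, adjusted p = 0.00184) were lower. These are 20%, 16.7% and 4% of their lists, where 5.71% of all genes were lower and 11.3% called in either direction. As with the members, complex I calls at 12 months lay on both sides, and the age calls on the lower side.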

How the data were processed

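The labels' protocols give TRIzol extraction and Lexogen QuantSeq 3′ FWD libraries. The submitters' processing notes name GRCm38, R 3.4.3 and DESeq2 1.18.1; for aligner, counter and strand setting nothing is given in the sources used here. The authors deposited whole-number read counts per gene, not normalized, and all tests start from them. The authors also deposited a normalized signal, each count divided by a DESeq2 size factor, used here for gene symbols only. The smallest row total was 66, so rare transcripts do not appear.

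Counts were fitted with edgeR 4.0.16 (R 4.3.3): TMM, filterByExpr, robust quasi-likelihood F test, 22 libraries in 6 groups, 16 residual degrees of freedom, Benjamini-Hochberg adjustment over 15064 genes, threshold 0.05. The 7 contrasts fixed at the start and 2 added later share libraries. Alternatives used DESeq2 1.42.0, limma 3.58.1, other scaling and filters, libraries left out and a GC offset (natural spline, 4 degrees of freedom). Code was tested on simulated data. Levels are TMM-scaled CPM. The biological coefficient of variation was 20.5%; the 32 library pairs within groups had a chi-square per degree of freedom of 9.43 to 123, so no library counted as a repeat. Replicate numbers name animals and pair none.

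Members and lists were chosen with earlier results of these data known. Per-library values are given for members called in a genotype comparison, for those of smallest p per complex where none was called, and for isoform groups; age calls, Cox7c and Cox5b were added after their values were seen. Coordinates are from GENCODE M21 and promoters from RefSeq. The last 300 bases of 7 members have a copy elsewhere with at least 95% identity (Atp5g2, Atp5h, Atp5k, Atp5l, Atp5o, Cox6a1 and Cox7c), and exons of 12 overlap a gene on the other strand.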

Additional observations from a re-analysis of the deposited data

Results flagged for a closer look

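Single libraries stood far from the 4 others of their group in 5 of 80 sets of 5 values, where chance gives about 1 in 20. In Pt-CrAT at 24 months these were Uqcrc2 in CrAT24Mchow123 (220 CPM, the lowest), Cox6c in CrAT24Mchow146 (2530 CPM, the highest) and Atp5h in CrAT24Mchow136 (255 CPM, the highest). In fl/fl at 24 months they were Atp5a1 in Wt24Mchow145 (914 CPM) and Cox8b in Wt24Mchow154 (0.622 CPM), each the highest.

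The difference between Pt-CrAT and fl/fl varied among the 3 settings in edgeR's test at an adjusted p of 0.0349 for Uqcrc1, 0.0358 for Atp5d, 0.0377 for Uqcr10, 0.0379 for Atp5j2 and 0.0441 for Atp5k. In the added contrast of 24 against 12 months the adjusted p was 0.0108 for Uqcrc1, 0.012 for Uqcr10, 0.0121 for Atp5d, 0.0122 for Atp5j2, 0.0146 for Atp5k and 0.0181 for Uqcr11. All 6 had a positive log2 fold change at 12 months and a negative one at 24 months. This order of signs is largely set by the selection, since all 6 were called higher at 12 months. None passed edgeR's test at 24 months. The 6 are 15.4% of the members tested, beside 17% of all genes called in that contrast. The age, the diet word and any unlabelled batch change together between these settings and cannot be told apart.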

How the results depend on the processing

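In the contrasts that have a direction, no called member was reversed under any setting, and counts of calls moved as follows. With sample quality weights the members called were 14 for genotype at 12 months, 13 for its variation among settings, 16 for 24 against 12 months, 11 and 7 for age in Pt-CrAT and fl/fl, and 1 for age by genotype. Over all genes, 3913, 3237, 3329, 2852, 2098 and 386 were then called in the same order, against 2464, 764, 2562, 1705, 196 and 0 without the weights. With DESeq2 they were 1 for genotype at 24 months, 9 among settings, 12 for 24 against 12 months, and 8 and 1 for age in Pt-CrAT and fl/fl, with 8, 2370, 3362, 2169 and 729 genes called. With only the libraries compared, 0 were left at 12 months (1 gene over the whole table) and 3 for age in Pt-CrAT (1273 genes). The GC offset left 2 at 12 months (2010 genes) and 0 among settings (544). For age it left 3 in Pt-CrAT (1698) and 1 in fl/fl (310). Over both genotypes 10 were called with the offset (2562 genes), against 11 without. Without CrAT12MLFD328 and Wt12MLFD326 of 12 months the count was 0 at 12 months (19 genes). It was also 0 among settings (2) and for 24 against 12 months (5). Without CrAT24Mchow123 and CrAT24Mchow136 of 24 months it was 0 among settings (30 genes) and 0 for age in Pt-CrAT (417). Over both genotypes it was 5 (1660).

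With each library left out in turn, counts ran from 0 to 10 for genotype at 12 months, 0 to 8 among settings, 0 to 13 for 24 against 12 months, 0 to 6 and 0 to 3 for age in Pt-CrAT and fl/fl, 3 to 12 over both genotypes, and stayed at 0 at 15 months, at 24 months and for age by genotype. The causes were not tested. No paired analysis was possible because no replicate number is shared between groups. Values of called members and of member medians were compared under all settings. Of these, 655 kept their call or moved by less than the spread between libraries. Another 230, all of single members, lost the call, in the same direction where the contrast has one. The test among settings has no direction, so there only the call was compared. With 3 libraries a group, changes near the size of those called depend on single libraries.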

Other observations

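Cytosolic ribosomal protein genes, another large set of short abundant transcripts, gave other values than the members between 24 and 15 months. Of 83 genes, 66 were above 0 in Pt-CrAT (median log2 fold change 0.20, 1 called higher), where the 39 members had 8 above 0 and a median of -0.23. In fl/fl the ribosomal median was -0.03 and that of the members -0.25. At 24 months 59 of the 83 were above 0 in Pt-CrAT over fl/fl, and 12 of the 39 members. The 2 sets come from the same libraries, and the difference between them was not tested.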
